A study of Mus musculus with 112 samples.

Results

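Of 14809 RNA polymerase II (Pol II) Ser5P peaks called in mouse embryonic stem cells before SNRNP70 depletion, 3591 (24.2%) shared no base with any Ser5P peak called after 4 h of depletion. These 3591 regions, called 0 h-only peaks here, are described below. The other 11218 peaks shared at least 1 base with a 4 h peak and are called kept peaks. The regions were chosen by the presence or absence of a peak in the 0 h and 4 h Ser5P lists, so the score, width and 4 h neighbourhood of the 0 h-only peaks are given as a description without a test.

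The cells were 46C mouse embryonic stem cells of strain 129/Ola in which SNRNP70 carries an auxin-inducible degron (AID), a tag through which the protein is degraded when indole-3-acetic acid (IAA, an auxin) is added. Both groups carry that allele. The 0 h group received no IAA, and the 4 h group received 500 µM IAA for 4 h. The labels do not say whether the line is 1 clone, and a line without the tag treated with IAA was not analysed here. Chromatin immunoprecipitation was done with an antibody against Ser5P or Ser2P, and each of the 4 peak lists comes from 1 library, so no difference between 0 h and 4 h has a replicate check.

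SNRNP70 (U1-70K) is a protein of U1 snRNP, the particle that pairs with 5′ splice sites and also protects nascent transcripts from premature cleavage and polyadenylation. The tail of the largest Pol II subunit is phosphorylated as transcription proceeds. Ser5P is placed mainly by the kinase of TFIIH and is richest near promoters and early in genes, while Ser2P builds up along gene bodies and towards their 3′ ends. In stem cells Ser5P also marks Pol II at poised developmental genes that carry little Ser2P.

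The Ser5P list held 14809 peaks over 24.9 Mb at 0 h and 16216 peaks over 29.7 Mb at 4 h, so the 0 h-only peaks were absent from the longer of the lists. The Ser2P list held 5915 peaks at 0 h and 7090 at 4 h. Each peak carries a score made by the authors, with no statement of what it scores, and the lowest score was 50 in every list. A peak absent at 4 h is therefore one that did not enter the list, which does not show that Pol II had left the region. Read numbers are unknown, and their part in the difference between lists was not tested. In the other direction 5404 of the 16216 4 h Ser5P peaks (33.3%) shared no base with a 0 h peak. The Ser2P lists overlapped less, with 43.0% of 0 h peaks lacking a 4 h peak and 57.3% of 4 h peaks lacking a 0 h peak.

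The peak lists carry no gene names, so the cell type was checked in chromatin-bound total RNA of the same line (3 libraries per group). At 0 h the embryonic stem cell lncRNA Lncenc1 stood at 93.9 ± 13.6 FPKM (SD, n = 3), Platr4 at 35.3 ± 7.92 and Platr14 at 30.4 ± 5.07. Some lncRNAs were listed here as ones of differentiated cells, without a check that stem cells lack them. Of these, Hotairm1 stood at 0.51, 0.55 and 0 in the 3 libraries. Bvht stood at 1.85, 2.2 and 1.31, and Miat at 1.48, 2.32 and 2.37. Mir124a-1hg, the host of a neuronal microRNA, stood beside Platr4, at 35.6 ± 5.85, so not every lncRNA of that list was low. The other stem cell lncRNAs on the list (Panct2, Platr3, Platr6, Platr7 and Platr27) had means from 1.86 (Platr6) to 7.56 (Platr27), and Fendrr was not matched in the table. At 4 h, Lncenc1 stood at 48.4 ± 4.25 FPKM (SD, n = 3), Platr4 at 5.02 ± 1.52, Platr14 at 14.0 ± 1.75 and Platr27 at 1.72 ± 0.147. For all 8 stem cell lncRNAs every 4 h library lay below every 0 h library, as it did for 51.9% of the 1282 lncRNAs in the table and for Bvht among the 4 listed ones of differentiated cells. Mir124a-1hg stood at 32.7 ± 4.53 at 4 h, and its groups overlapped. The part of the lower stem cell lncRNA levels at 4 h in the peak lists was not tested.

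The 0 h-only peaks were mostly narrow and low in score. Their median width was 910 bp, with the middle of the distribution between 792 and 1164 bp, against 1344 bp (1023 to 1940) for kept peaks. Their median score was 65.2 (quartiles 55.6 and 85.8), against 141 (82.4 and 288) for kept peaks of the same list. A score of 200 or more was reached by 64 of the 3591 (1.78%) and by 4062 of the 11218 kept peaks (36.2%). The 4 h-only peaks, read in the other library, had a median width of 1034 bp and a median score of 70.6.

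Along the 0 h list, the share without a 4 h peak fell at each step of score. It was 55.7% (825 of 1481; Wilson 95% interval 53.2 to 58.2%) in the lowest decile, with scores of 50 to 55.02. It was 24.2% in the decile from 88.51 to 109.18, the same as over the whole list. In the highest decile, from 501.96 to 3233.06, it was 0.135% (2 of 1480; 0.0371 to 0.491%). Width gave a like order, from 51.2% in the narrowest decile to 2.64% (39 of 1480) among peaks of 2771 bp or more. Intervals here and below cover counting error only, since neighbouring peaks of 1 library are not independent.

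**Figure D1:**
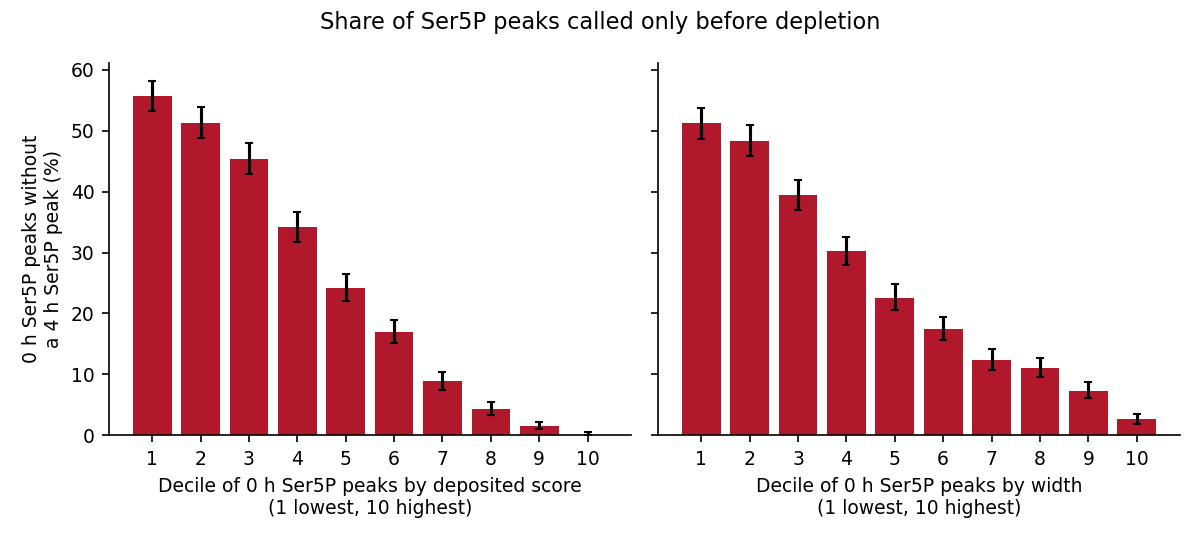
Bars give the percent of 0 h Ser5P peaks that share no base with a 4 h Ser5P peak, by decile of the deposited score (left) and of width (right); error bars are Wilson 95% intervals. The share runs from 55.7% to 0.135% over score and from 51.2% to 2.64% over width.

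The strongest 0 h-only peak stood far above the others. It lay on chromosome 13 (98573299 to 98582163, mm9), had a score of 1447 and a width of 8865 bp, and was also the widest. The next 0 h-only peak by score had 581. A 0 h Ser5P peak lay 217 bp from the chromosome 13 region and a kept peak 269 bp from it. The nearest 4 h Ser5P peak lay 4476 bp away with a score of 2737. No Ser2P peak touched the region at either time, the nearest 0 h Ser2P peak being 1037 bp away and the nearest 4 h one 298651 bp away.

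The second by score lay on chromosome 1 (59771982 to 59778113; score 581, width 6132 bp). It was covered over its whole width by Ser2P peaks at 0 h (score 1222) and at 4 h (score 516), and its nearest 4 h Ser5P peak was 13619 bp away. Thus the Ser5P peak here was absent from the 4 h list while the Ser2P peak was present in both Ser2P lists. A region on chromosome 4 (147450196 to 147454159; score 367) and one on chromosome 15 (82944896 to 82948448; score 362) were likewise touched by Ser2P peaks at both times. On chromosome 4 the Ser2P score was 656 at 0 h and 73.1 at 4 h, and on chromosome 15 it was 480 and 372; scores of different libraries are given side by side and are not compared.

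Other high-scoring 0 h-only peaks had Ser2P at 0 h and none at 4 h. They lay on chromosome 18 (38745701 to 38750605; score 407), chromosome 6 (47127503 to 47130714; 398) and chromosome 2 (167254854 to 167257585; 374). Chromosome 9 (58316210 to 58318969; 335) and chromosome 7 (4850037 to 4853107; 334) came next in that class. Their 0 h Ser2P peaks were weak, with scores from 53.2 on chromosome 2 to 93.5 on chromosome 18, and covered from 74 bp on chromosome 18 to 806 bp on chromosome 7. The region on chromosome 6 sat 337 bp from a 4 h Ser5P peak with a score of 3100, and the one on chromosome 18 sat 570 bp from one with a score of 52.1. Beside these regions the 4 h Ser5P list thus held both a very strong and a barely listed peak.

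Among the 10 highest scores, 3 other regions had no 0 h Ser2P peak. One on chromosome 15 (102317258 to 102322779; score 413) touched a 4 h Ser2P peak over 791 bp. One on chromosome 8 (91553831 to 91558392; score 411) lay 12 bp from a kept peak. One on chromosome 16 (32129231 to 32131639; score 389) lay 142839 bp from the nearest 0 h Ser2P peak. Each had a 4 h Ser5P peak near it, at 1738, 579 and 3041 bp. Of the 18 distinct regions picked by score, width, Ser2P or nearness to a 4 h peak, 11 were still 0 h-only when a 4 h peak within 1000 bp counted as shared.

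Further wide regions had lower scores. On chromosome 8, a peak of 6605 bp (19693702 to 19700306; score 117) and one of 6153 bp (19681271 to 19687423; score 64.8) lay 6278 bp apart. Ser2P peaks covered 5664 and 3875 bp of them at 0 h and 5059 and 4333 bp at 4 h, while their nearest 4 h Ser5P peak was 83388 and 96271 bp away. On chromosome 4, a peak of 6356 bp (147050674 to 147057029; score 283) lay 1916 bp from a 4 h Ser5P peak.

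At the line drawn by the rule, a few bases decided the class. The 3 0 h-only peaks nearest to a 4 h peak were each 1 bp away from it: chromosome 11, 22906363 to 22907415 (score 62.2) and 102164980 to 102167760 (score 195), and chromosome 8, 11628757 to 11629554 (score 51.7). The 3 kept peaks with the fewest shared bases lay on chromosome 5 (34630386 to 34631309; 1 bp shared, score 77.1), chromosome 17 (25892346 to 25893264; 4 bp, score 52.4) and chromosome 12 (101361031 to 101361913; 9 bp, score 55.2). Such cases were few: 71 of the 3591 (1.98%) had a 4 h Ser5P peak within 100 bp, and the median kept peak shared 96.3% of its width.

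Ser2P peaks come from other libraries and were not used to choose the regions. Of the 3591 0 h-only peaks, 691 (19.2%; 18.0 to 20.6%) overlapped a 0 h Ser2P peak, against 1578 of 11218 kept peaks (14.1%; 13.4 to 14.7%) and 15.3% of all 0 h Ser5P peaks. The 0 h-only peaks thus held Ser2P more often than kept peaks, although they were narrower. Of the 4 h-only peaks, 4.15% (224 of 5404) overlapped a 0 h Ser2P peak. With 1 library per list there is no test of these differences, and the intervals are for counting error.

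The gap was wider at equal score. In the lowest quintile of 0 h score (50 to 62.41), 14.9% of 1585 0 h-only peaks and 7.84% of 1377 kept peaks overlapped 0 h Ser2P. In the middle quintile (88.51 to 138.2) it was 27.1% of 608 (23.8 to 30.8%) and 8.84% of 2354 (7.76 to 10.1%). In the next (138.24 to 276.58) it was 46.7% of 195 (39.8 to 53.7%) and 11.9% of 2767 (10.7 to 13.1%). In the highest, with 24 0 h-only peaks, it was 58.3% (38.8 to 75.5%) and 28.1% of 2937. Intervals did not overlap in any of the 5 quintiles. At equal width the order was the same in each quintile, for example 40.2% of 346 and 9.06% of 2616 at 1365 to 1938 bp.

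The mirrored comparison at 4 h did not show this order, and the overall order was the reverse. Of 4 h-only Ser5P peaks, 10.7% (577 of 5404) overlapped a 4 h Ser2P peak, against 17.2% (1858 of 10812) of 4 h peaks shared with 0 h. The 4 h-only share was the lower one in the first (10.2% and 14.5%), second (10.4% and 13.9%) and highest (16.7% of 42 and 27.9% of 3201) quintiles. The shares were close in the third (10.9% and 10.4%) and in the fourth (13.4% and 13.1%). A higher Ser2P share in peaks called at a single time was thus seen across the quintiles of the 0 h list, and not across those of the 4 h list.

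**Figure D2:**
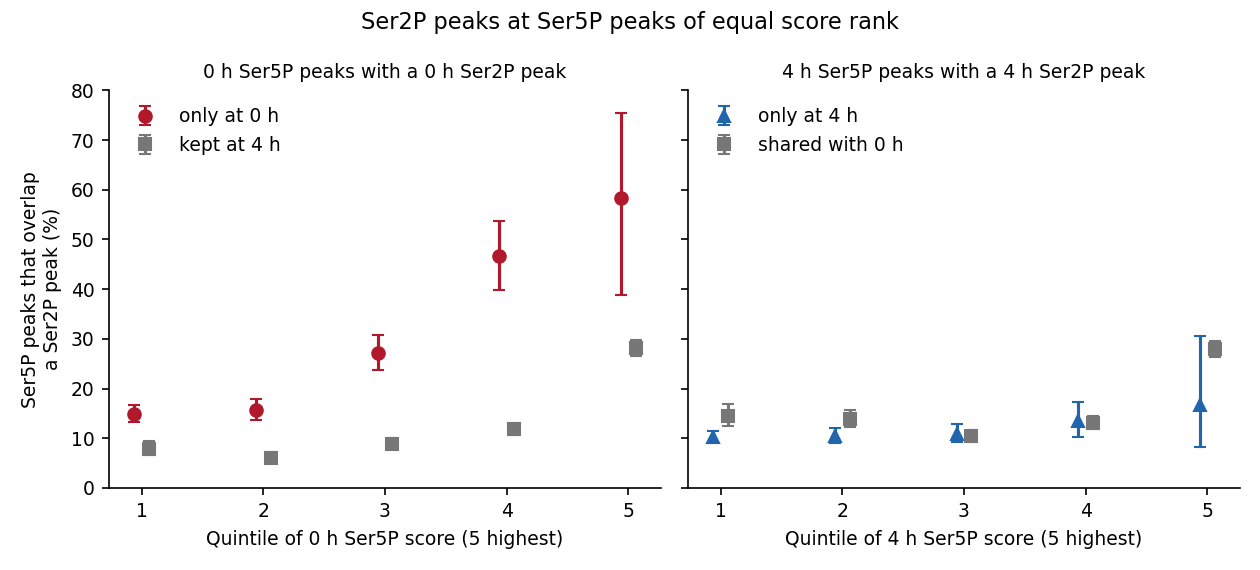
Points give the percent of Ser5P peaks that overlap a Ser2P peak of the same time, by quintile of the Ser5P score within its list (left, 0 h list: circles 0 h-only, squares kept; right, 4 h list: triangles 4 h-only, squares shared); bars are Wilson 95% intervals. At 0 h the 0 h-only peaks lie above kept peaks in each quintile (46.7% and 11.9% in the fourth), while at 4 h the 4 h-only peaks lie below shared peaks in the first, second and highest quintiles (16.7% and 27.9% in the highest) and close to them in the other two.

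Where a 0 h-only peak had Ser2P at 0 h, it had Ser2P at 4 h in a smaller share of cases than a kept peak. Of the 691 with 0 h Ser2P, 375 (54.3%; 50.5 to 57.9%) overlapped a 4 h Ser2P peak and 316 (45.7%; 42.1 to 49.5%) did not. Of the 1578 kept peaks with 0 h Ser2P, 292 (18.5%; 16.7 to 20.5%) had none at 4 h. Over all 5915 0 h Ser2P peaks, counted as Ser2P peaks, 43.0% had no 4 h Ser2P peak. The 0 h-only share thus lay near that of the whole Ser2P list, and the kept share lay below it. Counted from the Ser2P side, 349 of 623 0 h Ser2P peaks that touched 0 h-only peaks and no kept peak shared bases with a 4 h Ser2P peak (56.0%). The share was 77.8% (1405 of 1805) for those that touched kept peaks alone and 45.8% (1567 of 3423) for those that touched no 0 h Ser5P peak. Ser2P scores differed between these sets too: the medians were 107, 137 and 69.9. The part of Ser2P strength in these shares was not tested.

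A further 232 0 h-only peaks (6.46%) touched a Ser2P peak at 4 h and none at 0 h, so 607 (16.9%; 15.7 to 18.2%) overlapped 4 h Ser2P. Among all 0 h Ser5P peaks 16.7% did so, and the 0 h-only share was close to it. Most 0 h-only peaks, 2668 (74.3%), touched no Ser2P peak at either time, as did 80.7% of kept peaks. Where 0 h Ser2P was present it covered a median of 77.2% of the 0 h-only peak, against 61.4% of the kept peak. Over each whole class kept peaks were the wider (median 1344 bp against 910 bp), and cover was not compared at equal width.

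Many 0 h-only peaks lay within a few kilobases of a Ser5P peak listed at 4 h. The median gap to the nearest 4 h Ser5P peak was 7436 bp, with quartiles of 2071 and 26369 bp. A 4 h peak lay within 1000 bp of 566 (15.8%), within 5000 bp of 1456 (40.5%) and within 50000 bp of 2943 (82.0%). The 4 h-only peaks stood farther from 0 h peaks, with a median gap of 15688 bp and 67.2% within 50000 bp. The lists differ in length, and the part of that in the gaps was not tested. A 4 h peak within 10000 bp was found on both sides of 656 0 h-only peaks (18.3%), on 1 side of 1398 (38.9%) and on neither side of 1537 (42.8%).

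Near 4 h peaks were mostly ones shared with 0 h. For the 566 0 h-only peaks with a 4 h peak within 1000 bp, the nearest was a 4 h-only peak in 159 cases (28.1%), while 33.3% of all 4 h Ser5P peaks were 4 h-only. A kept peak lay within 1000 bp of 457 0 h-only peaks (12.7%) and within 5000 bp of 1204 (33.5%). Kept peaks had another kept peak within 1000 bp in 19.5% of cases and within 5000 bp in 34.1%. Within 50000 bp a kept peak lay near 76.8% of 0 h-only peaks, and another kept peak near 69.3% of kept peaks. Among the 24 0 h-only peaks of the highest score quintile, 9 (37.5%; 21.2 to 57.3%) had a kept peak within 1000 bp. From the lowest quintile up, the shares in the others were 12.3%, 10.9%, 15.0% and 17.4%. Kept peaks were not split by score in this count.

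Position and Ser2P went together. The 691 0 h-only peaks with 0 h Ser2P lay a median of 5087 bp from a 4 h Ser5P peak, and 98.4% of them lay within 50000 bp. The other 2900 lay a median of 8456 bp away, and 78.0% lay within that distance. Of the 833 0 h-only peaks with no kept peak within 50000 bp, 22 (2.64%; 1.75 to 3.97%) overlapped 0 h Ser2P. Kept peaks with no other kept peak within that distance had a like low share, 3.93% (135 of 3439; 3.33 to 4.63%). A low Ser2P share was thus common to peaks of both classes that lay far from kept peaks. Peaks of either set could still have 0 h-only peaks near them. With a kept peak within 50000 bp the shares were 24.3% of 2758 0 h-only peaks (22.7 to 25.9%) and 18.5% of 7779 kept peaks (17.7 to 19.4%).

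**Figure D3:**
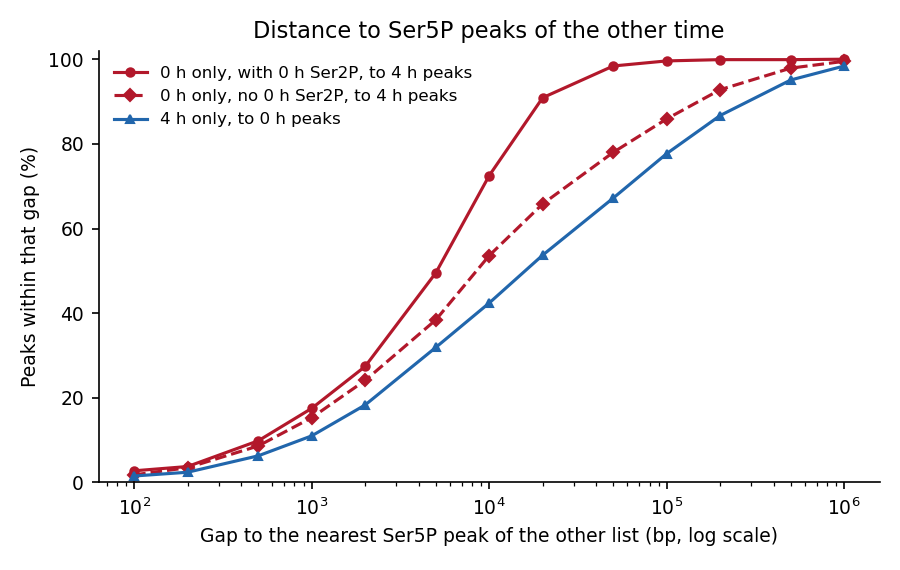
Curves give the cumulative percent of peaks whose nearest Ser5P peak of the other time lies within the gap on the x axis (bp, log scale). Within 50000 bp lie 98.4% of 0 h-only peaks with 0 h Ser2P, 78.0% of those without, and 67.2% of 4 h-only peaks.

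Of the 0 h-only peaks, 1720 (47.9%) stood alone when peaks less than 50000 bp apart were chained, and the others lay in runs of 2 or more. They formed 2351 runs, single peaks included. Runs of 3 or more held 1195 peaks (33.3%), and 72 runs of 5 or more held 448 (12.5%). Kept peaks, more numerous, were chained among themselves more often: 30.7% stood alone, 53.3% lay in runs of 3 or more and 33.1% in runs of 5 or more. Where a 0 h-only peak had another 0 h Ser5P peak within 5000 bp, the nearest was itself 0 h-only in 852 of 1758 cases (48.5%; 46.1 to 50.8%). For kept peaks the nearest was 0 h-only in 904 of 4406 (20.5%; 19.4 to 21.7%). The score of neighbours was not matched in this count.

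Ser2P was more frequent in longer runs. A 0 h Ser2P peak overlapped 10.6% of 1720 single 0 h-only peaks, 24.7% of 676 in pairs, 26.6% of 747 in runs of 3 or 4, and 31.9% of 448 (27.8 to 36.4%) in runs of 5 or more. Kept peaks, chained among themselves, had the same order at lower shares: 3.93% of 3439 single ones, 9.88% of 1802 in pairs, 16.9% of 2263 in runs of 3 or 4 and 23.7% of 3714 (22.4 to 25.1%) in runs of 5 or more. Each class was chained without the other, so a single 0 h-only peak could have kept peaks close by. A single kept peak could not, and the levels of the classes are therefore not matched for surroundings. The share of 0 h-only peaks with 0 h Ser2P that had no 4 h Ser2P peak hardly moved, at 45.1% for single peaks and 44.8% in runs of 5 or more. Both values lay near the 43.0% of all 0 h Ser2P peaks without a 4 h one. Kept peaks were not split by run size for this share.

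The largest run lay on chromosome 4 (117559301 to 117635745) and held 13 0 h-only peaks over 76.4 kb, with scores from 51.0 to 132. The last 10 began between 57.8 and 75.7 kb from its start, and a kept peak began 97 bp past its end (score 223 at 0 h, with a 4 h peak of score 355 over it). Inside the run stood a single 4 h Ser5P peak, at 28.2 kb with a score of 50.8, no kept peak and no 0 h Ser2P peak. A 4 h Ser2P peak (score 55.1) touched the first of the 13. The dense row of Ser5P peaks that led up to the kept peak at 0 h was thus not in the 4 h list, while the kept peak was.

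On chromosome 11 (98798632 to 98879486) 11 0 h-only peaks spread over 80.9 kb among 3 kept peaks, and 2 of the 11 overlapped 0 h Ser2P. The 4 h Ser5P peaks inside that run numbered 3, none of them 4 h-only. On chromosome 8 (87394853 to 87501003) 11 0 h-only peaks spread over 106 kb among 5 kept peaks. The highest of them (87446303 to 87449367; score 344) was touched by Ser2P at both times, with scores of 57.4 and 63.0.

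A run on chromosome 3 (41373609 to 41405949), singled out after its values were seen, differed from these in Ser2P. Its 10 0 h-only peaks over 32.3 kb had scores from 51.45 to 232, and all 10 overlapped 0 h Ser2P peaks. Inside it lay 16 Ser2P peaks at 0 h and 10 at 4 h, and 5 of the 10 0 h-only peaks overlapped one at 4 h. A kept peak of 14707 bp (41358880 to 41373586; score 1387) ended 22 bp before the run, and the 4 h Ser5P peaks over it included ones of score 778 and 57.3. A single kept peak lay inside the run (41382516 to 41384271; score 200 at 0 h), where the 4 h Ser5P peak had a score of 56.7.

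**Figure D4:**
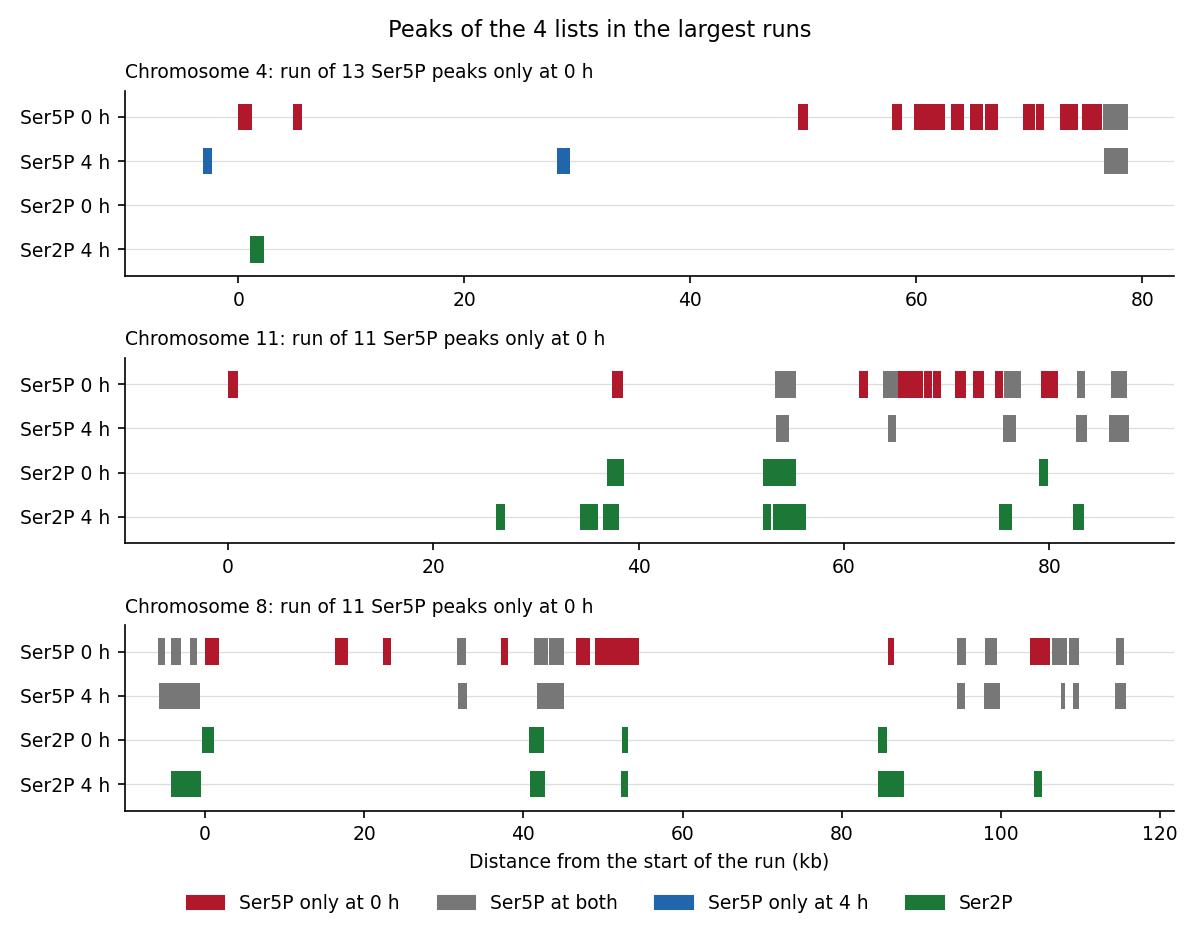
Bars show peaks of the 4 lists along the 3 runs with most 0 h-only peaks, as distance in kb from the start of the run (red 0 h-only Ser5P, grey Ser5P at both times, blue 4 h-only Ser5P, green Ser2P). Inside the runs lie 1 4 h Ser5P peak on chromosome 4, 3 on chromosome 11 and 4 on chromosome 8; the runs were picked for their number of 0 h-only peaks, and 20 of the 72 runs of 5 or more hold as many or more 4 h Ser5P peaks as 0 h-only ones.

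By chromosome the 0 h-only share varied little. Over the 20 chromosomes with at least 100 0 h peaks it ran from 20.4% on chromosome 12 (99 of 485; 17.1 to 24.2%) to 27.1% on chromosome 7 (295 of 1090; 24.5 to 29.8%), around 24.2% for the whole list. Chromosome X had 26.7% (133 of 498; 23.0 to 30.8%). The share of 0 h-only peaks with 0 h Ser2P ran from 5.31% on chromosome 14 (6 of 113; 2.46 to 11.1%) to 26.7% on chromosome 9 (47 of 176; 20.7 to 33.7%). For kept peaks it ran from 8.61% on chromosome 18 to 19.9% on chromosome 7, with 9.72% on chromosome 14 and 13.6% on chromosome 9. The 0 h-only share was the higher one on 15 of the 20 chromosomes. It was the lower one on chromosome 12 (10.1% and 12.2%), 13 (9.48% and 11.3%), 14, 17 (18.2% and 19.8%) and X (9.02% and 10.7%), where the intervals of both classes overlapped. Where it was the higher one, the intervals were apart on chromosomes 3, 4, 9 and 16 only and overlapped on the rest.

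**Figure D5:**
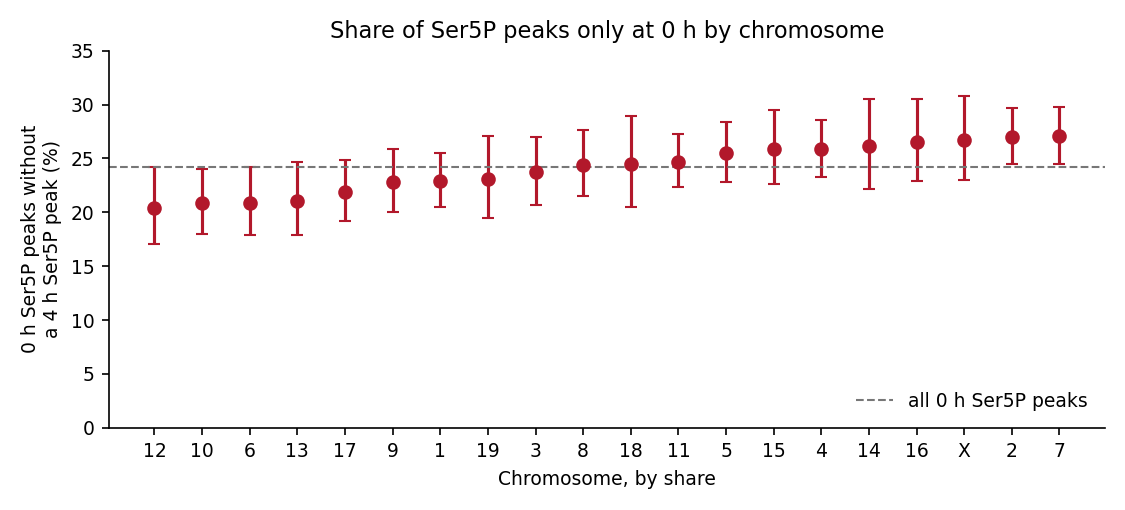
Points give the percent of 0 h Ser5P peaks without a 4 h Ser5P peak on each of 20 chromosomes, ordered by that share, with Wilson 95% intervals; the dashed line is the whole list (24.2%). Shares run from 20.4% on chromosome 12 to 27.1% on chromosome 7.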

How the data were processed

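Peak lists came from 4 ChIP-seq libraries: Ser5P and Ser2P at 0 h and 4 h of IAA, 1 library each. Per the submitters' processing notes CASAVA, Bowtie2, TopHat2 2.0.11 and bedtools were used with build mm9. Peak names in the deposited lists name MACS; its version and settings are not given in the labels or files. The score is the authors' and is used only within a list. FPKM values of the RNA check were scaled to spike-in RNA by the authors, per the file headers.

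Overlap, edge gaps and merging were computed with numpy 2.4.6 and pandas 2.3.3 and tested on simulated intervals; Wilson intervals came from scipy 1.17.1. A peak was 0 h-only if it shared no base with a 4 h peak. Named regions were the 10 highest scores, the 5 widest, the 3 nearest to either side of the rule, the 3 runs with most 0 h-only peaks and the 5 highest scores with 0 h Ser2P, with or without 4 h Ser2P. Members and rules were chosen with earlier results of these data known. No mm9 genome or annotation was used, so genes, sequence and lncRNA changes at these regions were not analysed here.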

Additional observations from a re-analysis of the deposited data

How the results depend on the processing

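The number of 0 h-only peaks stayed within 1.5 times of 3591 except with the 0 h list limited to the scores from the median (109.18) up, which left 469 (6.33% of peaks). That set was wider (median 1551 bp), with 39.0% on 0 h Ser2P, 25.8% on 4 h Ser2P and 36.5% within 5000 bp of a kept peak. Requiring 50% of the 0 h peak to be covered gave 27.9% 0 h-only, a median of 932 bp, 20.7% and 19.6% on 0 h and 4 h Ser2P, and 35.5% near kept peaks. Counting a 4 h peak within 500 bp gave 22.1% and 29.4% near kept peaks; within 1000 bp it gave 20.4%, 15.4% on 4 h Ser2P and 25.6% near kept peaks. With 4 h peaks limited to scores from the lower quartile (70.55) up it was 32.3%, with a median of 936 bp, 17.1% and 15.4% on 0 h and 4 h Ser2P, and 28.7% near kept peaks. Merging peaks closer than 1000 bp gave 22.3%, and 22.6% near kept peaks. A Ser2P peak within 1000 bp was found for 25.2% at 0 h and 23.0% at 4 h, and 50% cover by Ser2P for 14.3% and 12.9%. For kept peaks the shares within 1000 bp were 16.3% at 0 h and 20.4% at 4 h. Their shares at 50% cover were not computed. Under each of these 6 changes to the Ser5P rule or lists, 0 h Ser2P stayed more frequent at 0 h-only than at kept peaks: 20.7% and 13.2%, 19.0% and 14.3%, 18.8% and 14.4%, 39.0% and 18.2%, 17.1% and 14.5%, and 18.0% and 13.9%. Of the 18 named 0 h-only regions, 11 stayed so with 1000 bp and 10 with merging. No paired analysis was possible because each list comes from 1 library. Read depth and fragment counts are not given, so how far the 50 score limit hides weaker 4 h peaks cannot be told.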

Other observations

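Sequences named random or Un in mm9 held 36 of the 0 h Ser5P peaks, 4 of them 0 h-only, on 9 sequences. Chromosome Y held 4 peaks, and none was 0 h-only.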
